A study of Mus musculus with 8 samples.

Results

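The genes described are 9 that set or read out the macrophage state: the growth factor receptors Csf1r and Csf2ra, and the transcription factors Spi1, Cebpa, Cebpb, Irf8, Maf, Mitf and Klf4. They were chosen by symbol, with earlier results of these data known, as 9 of the 24421 gene symbols counted in every library. All 9 passed the filter on low counts. RNA from primary mouse macrophages had been sequenced in 8 libraries of 3 genotypes, all from mice on a normal diet: WT (n = 3), LysM-DKO (n = 3) and ABCG1KO (n = 2). The design text of the series calls the double knockout Epsin-DKO; epsins are adaptor proteins of endocytosis, and LysM is a common name for the lysozyme gene whose promoter often drives Cre in myeloid cells. ABCG1 is a membrane transporter through which macrophages export cholesterol to lipoproteins. The labels give neither the alleles nor the age, the sex or the tissue of origin of the cells, and they do not say that replicates came from separate animals, so p-values measure only the spread between these libraries.

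Macrophages arise and survive under 2 growth factors of the colony-stimulating family. CSF1, and the second ligand IL-34, act through the receptor tyrosine kinase CSF1R, while GM-CSF acts through a receptor made of the specific alpha chain encoded by Csf2ra and a beta chain that is shared with other cytokines. PU.1, the product of Spi1, is the ETS factor that opens myeloid enhancers, the Csf1r gene among them, and it works with C/EBPα and C/EBPβ (Cebpa, Cebpb). IRF8 steers progenitors towards monocytes, c-Maf restrains self-renewal of mature macrophages, KLF4 promotes monocyte differentiation, and MITF drives lysosomal and osteoclast genes.

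Each library held 29567615 to 41888516 counts in genes. The targeted gene Abcg1 stood at 60.4 and 73.4 CPM (counts per one-millionth of the scaled library) in ABCG1KO against 345 to 405 in WT, a log2 fold change of -2.52 (SE 0.372, edgeR quasi-likelihood test with Benjamini-Hochberg adjusted p = 0.00414). Epn1 stood at 155 to 183 CPM in the libraries labelled LysM-DKO and at 191 to 229.7 in WT, and neither Epn1 (adjusted p = 0.430 in the same test) nor Epn2 (adjusted p = 0.852) passed, so these counts do not check that label. Reads aligned to several loci made up 6.74% to 6.93% of counted reads in ABCG1KO and 2.65% to 3.01% elsewhere. Reads assigned to no counted feature made up 10.2% to 13.8% and 4.26% to 6.07%, and these counts do not tell where such reads lie. Ambiguous reads, which fit more than 1 gene and were counted to none, made up 0.614% to 0.665% in ABCG1KO, 0.873% to 0.888% in LysM-DKO and 0.887% to 0.980% in WT. Xist stood at 79.1 to 265 CPM in 5 libraries, at 0.0485 CPM in LysM-DKO 1 and at 0 in both ABCG1KO libraries, and Ddx3y of the Y chromosome had the reverse pattern. Sex and genotype therefore cannot be told apart in ABCG1KO against WT, while LysM-DKO 1 shares the sex-linked pattern of the ABCG1KO libraries. Of 13 macrophage markers none was at 0 in any group, and their summed level was 20066 to 23193 CPM in WT, 13160.1 to 17849 in LysM-DKO and 21562 to 24131 in ABCG1KO. Lyz2 alone gave 13004 to 15709.5 CPM of the WT sum and 6177 to 8105 of that in LysM-DKO, so the lower LysM-DKO sum does not speak for the markers in general. Against WT, 5 of the 13 were called higher and 1 lower in ABCG1KO, and 0 in either direction in LysM-DKO. Markers of large peritoneal macrophages summed to 1094 to 2211, 1578 to 2313 and 5007 to 10026 CPM in the same order, and 5 of 13 were called higher in ABCG1KO than in WT. The other 8 were not called. Fn1 alone gave 861 to 1548 CPM of this sum in WT and 7071 and 3524 in ABCG1KO. Monocyte markers summed to 23.8 to 88.6, 43.8 to 131 and 449 to 1383 CPM (3 of 8 called higher), dendritic cell markers to at most 9.03, 3.50 and 21.5 CPM (2 of 7 tested called higher), and mast cell markers to at most 3.15, 0.561 and 47.3 CPM (1 of 4 tested called higher). The mast cell sum was 8.07 CPM in 1 ABCG1KO library and 47.3 in the other. Kit is on both the dendritic and the mast cell list, and it is the 1 mast cell gene called, so these calls are not separate. Of the monocyte sum in ABCG1KO, Hp gave 867 and 175 CPM and F13a1 258 and 187. Over all genes tested, 7.21% were called higher in ABCG1KO than in WT and 8.83% lower. The marker lists were chosen with earlier results of these data known.

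The levels of the 9 genes spanned a wide range, which was compared per kilobase of exon so that gene length does not enter. In WT, Csf1r was highest at 216 ± 64.9 CPM per kb (SD, n = 3), followed by Spi1 at 156 ± 4.64, Csf2ra at 141 ± 11.8 and Cebpa at 109 ± 28.7. Each of these 4 overlapped its neighbour among them in WT, so their order is not fixed beyond the spread between libraries. Cebpb came next at 48.9 ± 10.1 CPM per kb, then Irf8 at 33.9 ± 2.88, Maf at 22.8 ± 2.16, Mitf at 17.0 ± 2.54 and Klf4 at 3.22 ± 1.31 (SD, n = 3 each), and from Cebpa down no neighbours overlapped. In ABCG1KO the order of the means was Csf1r at 494 ± 48.5, Cebpa at 389 ± 179, Csf2ra at 171 ± 28.4, Cebpb at 158 ± 101 and Spi1 at 135 ± 19.9 CPM per kb (SD, n = 2 each). In that group, Csf1r at 459.9 and 528 overlapped Cebpa at 262 and 516 CPM per kb. Cebpb at 86.6 and 229.9 spanned both Csf2ra at 151 and 191 and Spi1 at 121 and 149 CPM per kb. The place of Spi1 in this order is therefore not fixed beyond the spread between libraries. In LysM-DKO the order was Csf1r, Spi1, Cebpa and Csf2ra, at 208 ± 18.5, 134 ± 9.01, 129.8 ± 1.87 and 106 ± 35.3 CPM per kb (SD, n = 3 each). Klf4 remained the lowest in all 3 groups, with 259 to 1147 counts per library, and Csf1r had 31030 to 112585.

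**Figure D1:**
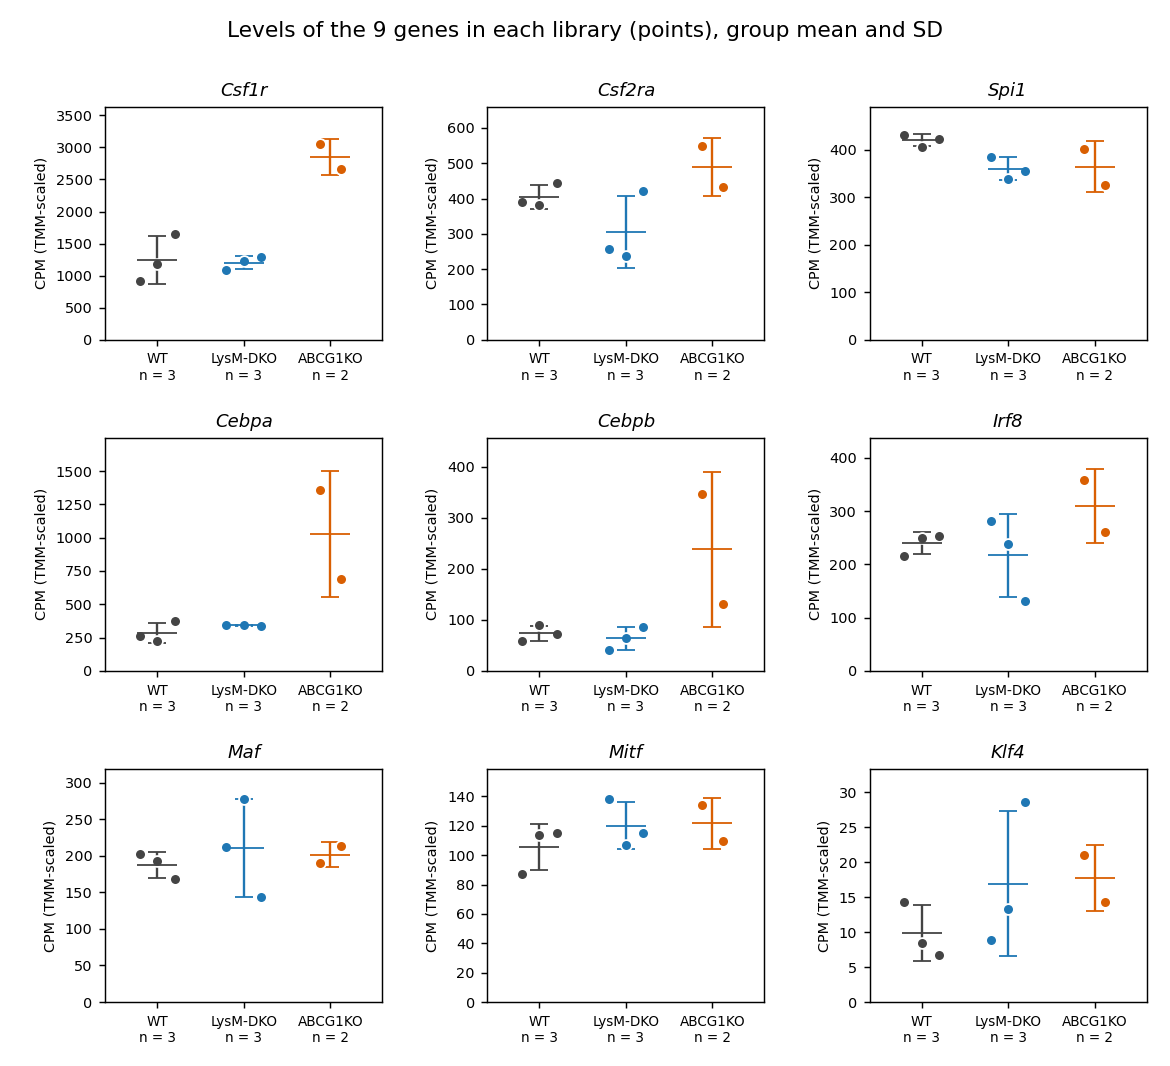
Level of each of the 9 genes in each of the 8 libraries (points) in CPM, scaled with TMM factors, by genotype (WT n = 3, LysM-DKO n = 3, ABCG1KO n = 2), with the group mean (long bar) and SD (short bars). Csf1r, Cebpa and Cebpb lie higher in both ABCG1KO libraries than in the other 6, and the other 6 genes show no such gap.

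In ABCG1KO against WT, 3 of the 9 genes were called higher and none lower, at an adjusted p under 0.05 in edgeR's quasi-likelihood test: Csf1r, Cebpa and Cebpb. Over all 13821 genes tested, 16% were called in this comparison, 7.21% higher and 8.83% lower. Before adjustment, 31.5% of them were under a p of 0.05, beside 3 of the 9, a near equal share. On the log2 scale the median difference was 0.37 over the 9 genes and 0.01 over all those tested. Without regard to sign, the median size of the difference was 0.37 over the 9 and 0.46 over all. The 9 genes were chosen with earlier results of these data known, so no excess of calls is read from their count. With library size as the only scaling, the median over all genes was 0.25 and the calls split into 2074 higher and 856 lower instead of 996 and 1220, and the same 3 genes were called. The CPM ranges of ABCG1KO and WT did not overlap for 6 of the 9 (Csf1r, Cebpa, Cebpb, Irf8 and Klf4 above WT and Spi1 under it), beside 48.2% of all genes tested. With bulk RNA, a change in the share of a cell type and a change in RNA per cell cannot be told apart. The higher monocyte and large peritoneal macrophage markers and the sex-linked genes move with ABCG1KO in each of these results. So do the larger shares of reads with no feature or at several loci and the smaller share of ambiguous reads. The part of the markers, the read shares and sex in them was not tested. LysM-DKO 1, the library labelled LysM-DKO with the sex-linked pattern of ABCG1KO, stood at 1085 CPM for Csf1r, 347 for Cebpa and 40.8 for Cebpb, under both ABCG1KO libraries in each. That single library also differs from ABCG1KO in genotype, so its values do not separate sex from genotype.

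Csf1r, the receptor for CSF1 and IL-34, stood at 909.5, 1188 and 1652 CPM in WT 1 to 3 and at 3051 and 2655 CPM in ABCG1KO 1 and 2. Every ABCG1KO library was above every WT library, and WT itself spread widely. Csf1r rose 2.28-fold (95% confidence interval 1.54 to 3.39), a log2 fold change of 1.19 (SE 0.249, edgeR quasi-likelihood test, Benjamini-Hochberg adjusted p = 0.0172). The call was lost without WT 2 (1.16, adjusted p = 0.0554 in edgeR) and without ABCG1KO 1 (1.08, adjusted p = 0.0859 in edgeR). The libraries labelled LysM-DKO stood at 1085, 1233 and 1292 CPM, within the WT range. Their log2 fold change from WT was -0.05 (95% interval -0.57 to 0.46, adjusted p = 0.940 in edgeR), and 0.10 with library size only, so no direction is given. Exons of Csf1r and of Hmgxb3 on the opposite strand overlap over 873 bases, 15.1% of the Csf1r exon length. The strand setting of the counting is not given in the sources used here. If strand was not used, reads in the overlap would be ambiguous, and the part of such reads in these values was not tested. Hmgxb3 stood at 30.4 to 52.4 CPM over the 8 libraries.

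Neither ligand gene of this receptor was called in ABCG1KO. Csf1 stood at 64.7, 61.7 and 44.1 CPM in WT and at 32.4 and 189 in ABCG1KO, on either side of WT (log2 fold change 0.96, SE 0.608, adjusted p = 0.321 in edgeR's quasi-likelihood test). In the libraries labelled LysM-DKO it stood at 136, 175 and 240.4 CPM, above every WT library, with a log2 fold change of 1.69 that did not pass (SE 0.566, adjusted p = 0.354 in edgeR). Il34 was at or under 7.27 CPM in all libraries and was not called. Tyrobp, the adaptor DAP12 that CSF1R signalling uses, stood at 915 to 1191 CPM in WT, 539.7 to 758 in LysM-DKO and 503 and 687 in ABCG1KO, and was called in neither comparison with WT (adjusted p = 0.353 and 0.0617 in edgeR).

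Csf2ra, the GM-CSF receptor alpha chain at chr19:61223957-61228429 on the minus strand (GRCm38), stood at 389.8, 381 and 444 CPM in WT, 256, 238 and 422 in LysM-DKO and 548 and 432 in ABCG1KO. The ABCG1KO range overlapped that of WT, and LysM-DKO 1 and 2 lay under WT while LysM-DKO 3 lay within it. Neither difference passed: the log2 fold change was 0.28 in ABCG1KO (95% interval -0.31 to 0.86, adjusted p = 0.503 in edgeR's quasi-likelihood test) and -0.41 in LysM-DKO (-0.94 to 0.12, adjusted p = 0.515). Among its partner chains, Csf2rb stood at 462, 836 and 753 CPM in WT and at 382 and 436 in ABCG1KO (log2 fold change -0.74, SE 0.261, adjusted p = 0.0916 in edgeR). Csf2rb2, its mouse-specific paralog for IL-3, fell from 517, 821 and 847 CPM to 239 and 267, a log2 fold change of -1.52 (SE 0.233, adjusted p = 0.00474 in edgeR). These 2 genes are near copies, with 12.3% and 18.9% of their 50-base stretches found in another gene. Reads aligned to several loci were not counted to any gene, so such reads may be missing from both. Their share was 6.74% to 6.93% in ABCG1KO and 2.83% to 3.00% in WT, and its part in these values was not tested. The ratio of Csf2ra to Csf2rb within a library, per unit of CPM, was 0.456 to 0.843 in WT and 0.992 and 1.43 in ABCG1KO. The gene for GM-CSF itself, Csf2, had no count in 6 of the 8 libraries.

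Spi1, the gene of PU.1 at chr2:91082390-91115756 on the plus strand (GRCm38), was the steadiest of the 9 in WT. It stood at 430.2, 406 and 423 CPM in WT, 386, 338 and 356 in LysM-DKO and 402 and 326 in ABCG1KO. Both knockout groups lay under WT without overlap, ABCG1KO 1 by a narrow margin. Neither difference passed the test: the log2 fold change was -0.21 in ABCG1KO (95% interval -0.55 to 0.14, adjusted p = 0.389 in edgeR) and -0.22 in LysM-DKO (-0.53 to 0.08, adjusted p = 0.537). With library size only, the ABCG1KO value became 0.03. Its paralogs were far lower, with Spib at or under 8.12 CPM in all libraries. Spic, a factor of iron-recycling macrophages, stood at 0.293 to 1.02 CPM in WT and at 1.85 and 9.20 in ABCG1KO (log2 fold change 3.13, SE 0.760, adjusted p = 0.0284 in edgeR), a call lost without WT 1, WT 3 or ABCG1KO 2.

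Cebpa and Cebpb encode C/EBP factors that bind the same kind of site, and both are genes of 1 exon block, Cebpa at chr7:35119293-35121928 and Cebpb at chr2:167688915-167690418, each on the plus strand (GRCm38). Since both were higher in ABCG1KO, the 250 bases before their starts are shown with those of Csf2ra, a member that was not called, from RefSeq on GRCm38.p6. Capitals mark matches on either strand of 4 motifs: the PU.1 core GAGGAA, the C/EBP half-site pair TTNNGNAA, the E-box CACGTG bound by MiT factors, and the CRE core TGACG. The windows are chr7:35119043-35119292 and chr2:167688665-167688914 on the plus strand and chr19:61228419-61228668 on the minus strand.
Cebpa: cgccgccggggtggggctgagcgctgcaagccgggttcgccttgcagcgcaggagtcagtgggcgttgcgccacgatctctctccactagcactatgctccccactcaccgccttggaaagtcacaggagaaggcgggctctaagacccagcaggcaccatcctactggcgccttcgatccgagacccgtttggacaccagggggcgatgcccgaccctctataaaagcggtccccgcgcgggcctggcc
Cebpb: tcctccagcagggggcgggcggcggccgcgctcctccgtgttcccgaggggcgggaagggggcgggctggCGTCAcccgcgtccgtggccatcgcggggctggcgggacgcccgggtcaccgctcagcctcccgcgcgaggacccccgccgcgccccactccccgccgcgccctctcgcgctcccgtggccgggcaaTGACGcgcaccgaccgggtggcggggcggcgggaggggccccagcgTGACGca
Csf2ra: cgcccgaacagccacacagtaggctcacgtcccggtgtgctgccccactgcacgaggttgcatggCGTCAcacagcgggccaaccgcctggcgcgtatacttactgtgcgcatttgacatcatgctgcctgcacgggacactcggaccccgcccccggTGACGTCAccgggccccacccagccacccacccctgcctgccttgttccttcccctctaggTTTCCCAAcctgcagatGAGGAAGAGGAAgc

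The Cebpa window held none of the 4 motifs. In the Cebpb window the CRE core occurred 3 times, beginning 180, 53 and 7 bases before the start. The Csf2ra window held 2 adjoining PU.1 cores, 1 C/EBP match and 3 CRE cores, of which 2 overlap in the palindrome TGACGTCA. Over 32851 windows of the same length, 23.3% held the PU.1 core, 36.8% the C/EBP motif, 6.0% the E-box and 17.8% the CRE core, with chromosome 18 left out. A window was found for 6 of the 9 genes. The other 3 genes had, over 6 windows, 1 E-box and 1 CRE core in Klf4, 1 C/EBP match and 2 CRE cores in Mitf, and no match in Irf8. A match is a run of letters and not a measured site.

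Cebpa stood at 262, 228 and 372 CPM in WT and at 1359.6 and 692 in ABCG1KO. Both ABCG1KO libraries were above every other library, and ABCG1KO 1 was far above ABCG1KO 2. Cebpa rose 3.57-fold (95% interval 2.22 to 5.73), a log2 fold change of 1.84 (SE 0.298, edgeR quasi-likelihood test, Benjamini-Hochberg adjusted p = 0.00632). It was the only 1 of the 3 calls that held under every alternative run, with log2 fold changes of 1.26 without ABCG1KO 1 to 2.24 without ABCG1KO 2. In the libraries labelled LysM-DKO it stood at 347, 342 and 337 CPM, inside the WT range and close together. The log2 fold change there was 0.25 (95% interval -0.37 to 0.87, adjusted p = 0.723 in edgeR).

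Cebpb stood at 58.8, 89.0 and 73.0 CPM in WT and at 346 and 130.3 in ABCG1KO. The ABCG1KO libraries were again the 2 highest of the 8, and ABCG1KO 1 was far above ABCG1KO 2. Cebpb rose 3.23-fold (95% interval 1.63 to 6.42), a log2 fold change of 1.69 (SE 0.428, edgeR quasi-likelihood test, Benjamini-Hochberg adjusted p = 0.0347). Without ABCG1KO 1 the value was 0.82 (adjusted p = 0.225 in edgeR). The call was also lost without WT 1, WT 2, WT 3 or LysM-DKO 2, at adjusted p of 0.104, 0.0658, 0.0892 and 0.0541 in edgeR. In the libraries labelled LysM-DKO it stood at 40.8, 64.8 and 85.3 CPM (log2 fold change -0.21, 95% interval -1.11 to 0.69, adjusted p = 0.852 in edgeR). Exons of Cebpb and of Tmem189 on the opposite strand overlap over 312 bases, 20.7% of the Cebpb exon length. As for Csf1r, the part of ambiguous reads in these values was not tested. Tmem189 stood at 195 and 332 CPM in ABCG1KO and at 301 to 349.9 in WT, and it was lowest in the library where Cebpb was highest.

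Other C/EBP genes were called higher in ABCG1KO as well. Cebpg, the gene of a C/EBP protein that lacks an activation domain, rose from 88.1, 91.8 and 96.0 CPM in WT to 235 and 189 (log2 fold change 1.20, SE 0.220, adjusted p = 0.0101 in edgeR). Cebpd, which acts in acute inflammatory responses, rose from 13.7, 14.2 and 11.7 CPM to 37.4 and 26.1 (log2 fold change 1.26, SE 0.334, adjusted p = 0.0377 in edgeR). Both calls were lost without ABCG1KO 1, and that of Cebpd also without any 1 WT library. The ratio of Cebpa to Cebpb overlapped between the groups, at 4.45, 2.56 and 5.10 in WT, 8.50, 5.28 and 3.95 in LysM-DKO and 3.93 and 5.31 in ABCG1KO.

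**Figure D2:**
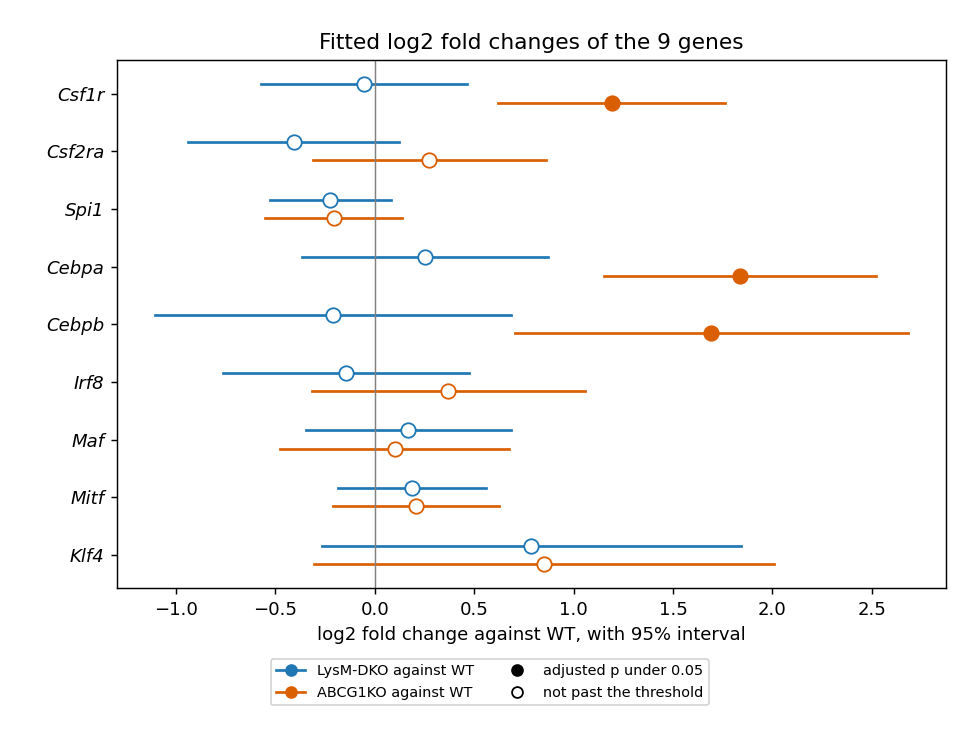
Log2 fold change of each of the 9 genes from WT (point) with its 95% confidence interval (bar), in ABCG1KO and in LysM-DKO, filled where the adjusted p is under 0.05, from 1 edgeR fit over 8 libraries; both comparisons share the 3 WT libraries. The ABCG1KO intervals of Csf1r (0.62 to 1.76), Cebpa (1.15 to 2.52) and Cebpb (0.70 to 2.68) lie above 0, and all LysM-DKO intervals include 0.

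Set against Spi1 in the same library, a measure that does not depend on library scaling, the receptor and the C/EBP genes were higher in ABCG1KO. The ratio of Csf1r to Spi1 in CPM was 2.11, 2.93 and 3.90 in WT, 2.81, 3.65 and 3.63 in LysM-DKO and 7.59 and 8.14 in ABCG1KO. That of Cebpa to Spi1 was 0.609, 0.561 and 0.880 in WT, 0.899, 1.01 and 0.947 in LysM-DKO and 3.38 and 2.12 in ABCG1KO. Cebpa was thus above Spi1 in both ABCG1KO libraries and in LysM-DKO 2, and below it in the other 5. The ratio of Cebpb to Spi1 was 0.137, 0.219 and 0.172 in WT, 0.106, 0.192 and 0.240 in LysM-DKO and 0.860 and 0.399 in ABCG1KO. Irf8 to Spi1 stood at 0.502, 0.615 and 0.597 in WT and at 0.891 and 0.800 in ABCG1KO, and LysM-DKO lay on both sides of WT at 0.730, 0.706 and 0.366. Csf1r to Csf2ra, the balance of the 2 growth factor receptors, was 2.33, 3.12 and 3.72 in WT and 5.57 and 6.14 in ABCG1KO, with LysM-DKO at 4.23, 5.19 and 3.06. These ratios are given with no test, and a ratio shows unequal change of its 2 genes and not which of them changed.

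**Figure D3:**
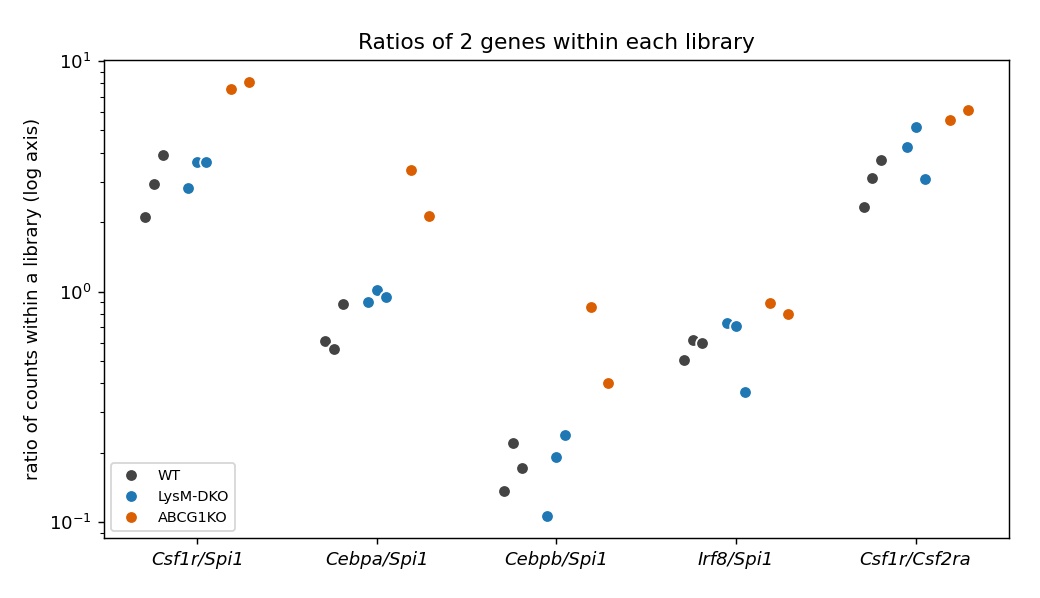
5 ratios of counts within each library (points) on a log axis, by genotype (WT n = 3, LysM-DKO n = 3, ABCG1KO n = 2). Csf1r/Spi1 is 7.59 and 8.14 in ABCG1KO and at most 3.90 in the other 6 libraries, while for Csf1r/Csf2ra the LysM-DKO libraries (3.06 to 5.19) reach close to ABCG1KO (5.57 and 6.14).

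Irf8, at chr8:120736358-120756694 on the plus strand (GRCm38), stood at 216, 249.8 and 253 CPM in WT, 282, 239 and 130.3 in LysM-DKO and 358 and 261 in ABCG1KO. ABCG1KO lay above WT, ABCG1KO 2 by a narrow margin, and LysM-DKO 3 was the lowest of the 8 libraries. Neither difference passed, at log2 fold changes of 0.37 in ABCG1KO (95% interval -0.32 to 1.06, adjusted p = 0.437 in edgeR) and -0.14 in LysM-DKO (-0.76 to 0.48, adjusted p = 0.855), the latter 0.12 without LysM-DKO 3. Irf4, its paralog, stood at 3.24 to 8.50 CPM in WT and at 13.1 and 14.2 in ABCG1KO (adjusted p = 0.176 in edgeR).

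Maf, the gene of c-Maf at chr8:115682942-115707794 on the minus strand (GRCm38), stood at 203, 192 and 168 CPM in WT, 213, 277 and 143 in LysM-DKO and 189.5 and 213 in ABCG1KO. The 3 groups overlapped, and LysM-DKO held both the highest and the lowest library. The log2 fold change was 0.10 in ABCG1KO (95% interval -0.47 to 0.68, adjusted p = 0.819 in edgeR) and 0.17 in LysM-DKO (-0.35 to 0.68, adjusted p = 0.787).

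Mitf, at chr6:97807052-98021349 on the plus strand (GRCm38), stood at 87.3, 114 and 115 CPM in WT, 138, 107 and 115 in LysM-DKO and 134 and 109.5 in ABCG1KO, so that ABCG1KO overlapped both other groups and WT 1 was the lowest library. The log2 fold change was 0.21 in ABCG1KO (95% interval -0.21 to 0.62, adjusted p = 0.475 in edgeR) and 0.19 in LysM-DKO (-0.19 to 0.56, adjusted p = 0.655). The related genes Tfeb, Tfe3 and Tfec were called in no comparison either. The melanocyte genes Tyr, Dct and Tyrp1, which mark the other well-known site of Mitf activity, had no count in any library.

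Klf4, at chr4:55527143-55532466 on the minus strand (GRCm38), was low throughout, at 14.3, 8.42 and 6.70 CPM in WT, 8.82, 13.4 and 28.7 in LysM-DKO and 21.0 and 14.4 in ABCG1KO. ABCG1KO 2 lay just above WT 1, and LysM-DKO 3 was the highest library. The log2 fold change was 0.85 in ABCG1KO (95% interval -0.31 to 2.01, adjusted p = 0.287 in edgeR) and 0.79 in LysM-DKO (-0.27 to 1.84, adjusted p = 0.526). These intervals reach past a 2-fold difference, so a change of that size could not be told from none with these libraries. Its paralog Klf2, which restrains inflammatory genes, stood at 6.21 to 11.2 CPM in WT and at 113 and 12.9 in ABCG1KO, so its call (log2 fold change 2.81, SE 0.791, adjusted p = 0.0499 in edgeR) rested on ABCG1KO 1 (0.51 without it), and it was lost in 12 of 17 alternatives.

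In the libraries labelled LysM-DKO against WT, none of the 9 genes was called by edgeR's quasi-likelihood test, none had an unadjusted p under 0.05, and DESeq2 called none. Over all genes 0.0362% were called (0.0217% higher and 0.0145% lower), 11.7% had an unadjusted p under 0.05, and 21% had CPM ranges that did not overlap. Among the 9, 1 gene had ranges that did not overlap: Spi1. The intervals set how large a difference these libraries leave possible: for Csf1r, Spi1 and Mitf every value from 1 end to the other was within 0.57 log2 units of 0, while those of Cebpb and Klf4 reached -1.11 and 1.84. Within LysM-DKO, replicate 3 lay apart from the other 2 in 4 members, with the highest Csf2ra and Klf4 and the lowest Irf8 and Maf.

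Compared directly, the libraries labelled LysM-DKO and those of ABCG1KO differed in the same 3 genes that were called in ABCG1KO against WT, and the 2 comparisons share the ABCG1KO libraries. Over all genes tested, 13.4% were called in this comparison, 5.64% lower and 7.76% higher in LysM-DKO, 30.9% had an unadjusted p under 0.05, and 48.2% did not overlap, beside 4 of the 9 (Csf1r, Csf2ra, Cebpa and Cebpb). Csf1r was lower in LysM-DKO by a log2 fold change of -1.25 (SE 0.249, adjusted p = 0.0171), Cebpa by -1.58 (SE 0.298, adjusted p = 0.0129) and Cebpb by -1.90 (SE 0.429, adjusted p = 0.0276), all in edgeR's quasi-likelihood test with Benjamini-Hochberg adjustment. None of the 3 remained called without ABCG1KO 1, at log2 fold changes of -1.15 for Csf1r, -1.03 for Cebpa and -1.05 for Cebpb. Without LysM-DKO 1 the calls of Csf1r and Cebpb were lost, and without LysM-DKO 2, or with only the groups compared (-1.91, adjusted p = 0.0725 in edgeR), that of Cebpb. Csf2ra did not pass (log2 fold change -0.68, SE 0.255, adjusted p = 0.113 in edgeR), but it did without LysM-DKO 3 (-0.99, adjusted p = 0.0201 in edgeR) and in DESeq2 (-0.71, adjusted p = 0.0499). The 5 others, Spi1, Irf8, Maf, Mitf and Klf4, had adjusted p of 0.282 or above in edgeR.

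The pathways around these genes were described through 4 lists, whose counts in ABCG1KO stand beside the 16% called over all genes tested (7.21% higher and 8.83% lower). The lists were chosen with earlier results of these data known, so no excess of calls in a list is read from its counts in any comparison. Of 16 tested genes of the CSF1 receptor axis, 2 were called higher and 1 lower in ABCG1KO against WT in edgeR's quasi-likelihood test, with a median log2 fold change of -0.04, a share of calls near that over all genes. Pik3r1, a regulatory subunit of PI3-kinase, rose from 41.2, 53.0 and 55.7 CPM to 111 and 115 (log2 fold change 1.18, SE 0.161, adjusted p = 0.00294). Inpp5d, the gene of the phosphatase SHIP1 that opposes PI3-kinase, rose from 154 to 208 CPM to 329 and 301 (0.79, adjusted p = 0.0302 in edgeR), a call lost without WT 1, WT 2 or either ABCG1KO library. Mapk3, the gene of the kinase ERK1, fell from 361, 542 and 682 CPM to 196 and 199.8 (log2 fold change -1.42, SE 0.257, adjusted p = 0.00979 in edgeR), lost without ABCG1KO 1. The libraries labelled LysM-DKO lay outside the WT range on the same side for each. They stood at 64.8 to 79.8 CPM for Pik3r1, 218 to 320 for Inpp5d and 251 to 294 for Mapk3, with no call against WT.

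On the GM-CSF axis, 3 of 14 tested genes were called higher and 3 lower in ABCG1KO (median log2 fold change 0.11). Pparg, a lipid-sensing nuclear receptor that GM-CSF induces in alveolar macrophages, fell from 106, 74.2 and 91.4 CPM to 25.6 and 28.6 (log2 fold change -1.74, SE 0.350, adjusted p = 0.0154 in edgeR), a call lost without either ABCG1KO library. Il3ra, the IL-3 receptor alpha chain, fell from 93.1 to 129 CPM to 63.7 and 56.8 (-0.89, adjusted p = 0.0184 in edgeR), also lost without either and with library size only. In the libraries labelled LysM-DKO, Il3ra was lower still at 41.2, 47.8 and 56.1 CPM, and it did not pass against WT (-1.21, adjusted p = 0.129 in edgeR). Csf3r, the receptor of G-CSF, rose from 84.3, 98.5 and 131 CPM to 348 and 204 (1.40, adjusted p = 0.0131 in edgeR), lost without ABCG1KO 1, and 10.5% of its 50-base stretches lie in another gene. Socs3, a feedback inhibitor of cytokine receptors, rose from 9.76, 12.5 and 4.06 CPM to 103 and 44.6 (3.07, adjusted p = 0.0155 in edgeR), lost without WT 1 or ABCG1KO 1.

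Among 30 other myeloid transcription factors tested, 8 were called higher and none lower in ABCG1KO, with a median log2 fold change of 0.50. Besides the C/EBP, Spic and Klf2 genes above, Etv6 and Fli1, ETS factors of blood cell development, stood at 36.3 to 50.2 and 47.4 to 54.9 CPM in WT. They stood at 83.7 and 69.8 and at 101 and 103 CPM in ABCG1KO (log2 fold changes of 0.87 and 0.97, adjusted p = 0.0142 and 0.0212 in edgeR). Nr4a1, an immediate-early nuclear receptor needed for patrolling monocytes, rose from 0.994 to 1.17 CPM to 47.7 and 15.2 (4.87, adjusted p = 0.0246 in edgeR). All 3 calls were lost without ABCG1KO 1, those of Fli1 and Nr4a1 also without any 1 WT library, and that of Fli1 without ABCG1KO 2. In the libraries labelled LysM-DKO, Etv6 stood at 50.6 to 61.1 and Nr4a1 at 1.38 to 21.9 CPM, above every WT library. Fli1 at 52.0 to 90.0 CPM overlapped WT there, and none of these was called.

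In the MiT family and osteoclast list, whose members include known MITF targets, 5 of 13 tested were called lower and none higher in ABCG1KO (median log2 fold change -0.46). Of the 8 not called, 3 had values above 0 and 5 under 0, and Mitf itself overlapped WT. Gpnmb, a lysosomal glycoprotein, fell from 27963, 24109 and 32295 CPM to 1607 and 4561 (log2 fold change -3.19, SE 0.460, adjusted p = 0.00378 in edgeR). Ctsk, the protease cathepsin K, fell from 309, 167 and 469 CPM to 20.0 and 29.4 (-3.67, SE 0.514, adjusted p = 0.00370 in edgeR). Atp6v0d2, a subunit of the proton pump, fell from 1351 to 1748 CPM to 72.7 and 286 (-3.10, SE 0.565, adjusted p = 0.0107 in edgeR). These 3 calls held under all 17 alternatives. Acp5, the tartrate-resistant phosphatase, and Clcn7, a lysosomal chloride carrier, were called at -2.19 and -0.57 (adjusted p = 0.0408 and 0.0453 in edgeR) and lost the call in 8 and 12 of 17 alternatives, each without any 1 WT or ABCG1KO library among them. In the libraries labelled LysM-DKO, Gpnmb stood at 17541 to 23514 and Acp5 at 54.7 to 208 CPM, under every WT library and not called. Ctsk, Atp6v0d2 and Clcn7 overlapped WT there. In all, 22 genes of the 4 lists were called in ABCG1KO against WT. That number was 12, 13 and 13 without WT 1, 2 and 3 in turn, and 7 without ABCG1KO 1.

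In the libraries labelled LysM-DKO against WT, none of the 73 tested genes of the 4 lists was called in edgeR's quasi-likelihood test. Of them, 19 had an unadjusted p under 0.05, beside 11.7% of all genes, and DESeq2 called 8, beside 299 of all 13821 genes. Against ABCG1KO, LysM-DKO was lower in 6 list genes and higher in 8, the latter with Gpnmb at 2.80, Ctsk at 2.85 and Atp6v0d2 at 2.94 on the log2 scale (adjusted p = 0.00729, 0.0103 and 0.0146 in edgeR). In this comparison the call of Ctsk was lost without ABCG1KO 1 and that of Atp6v0d2 with only the groups compared. The number called was 8 without LysM-DKO 1 and 4 without ABCG1KO 1.

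**Figure D4:**
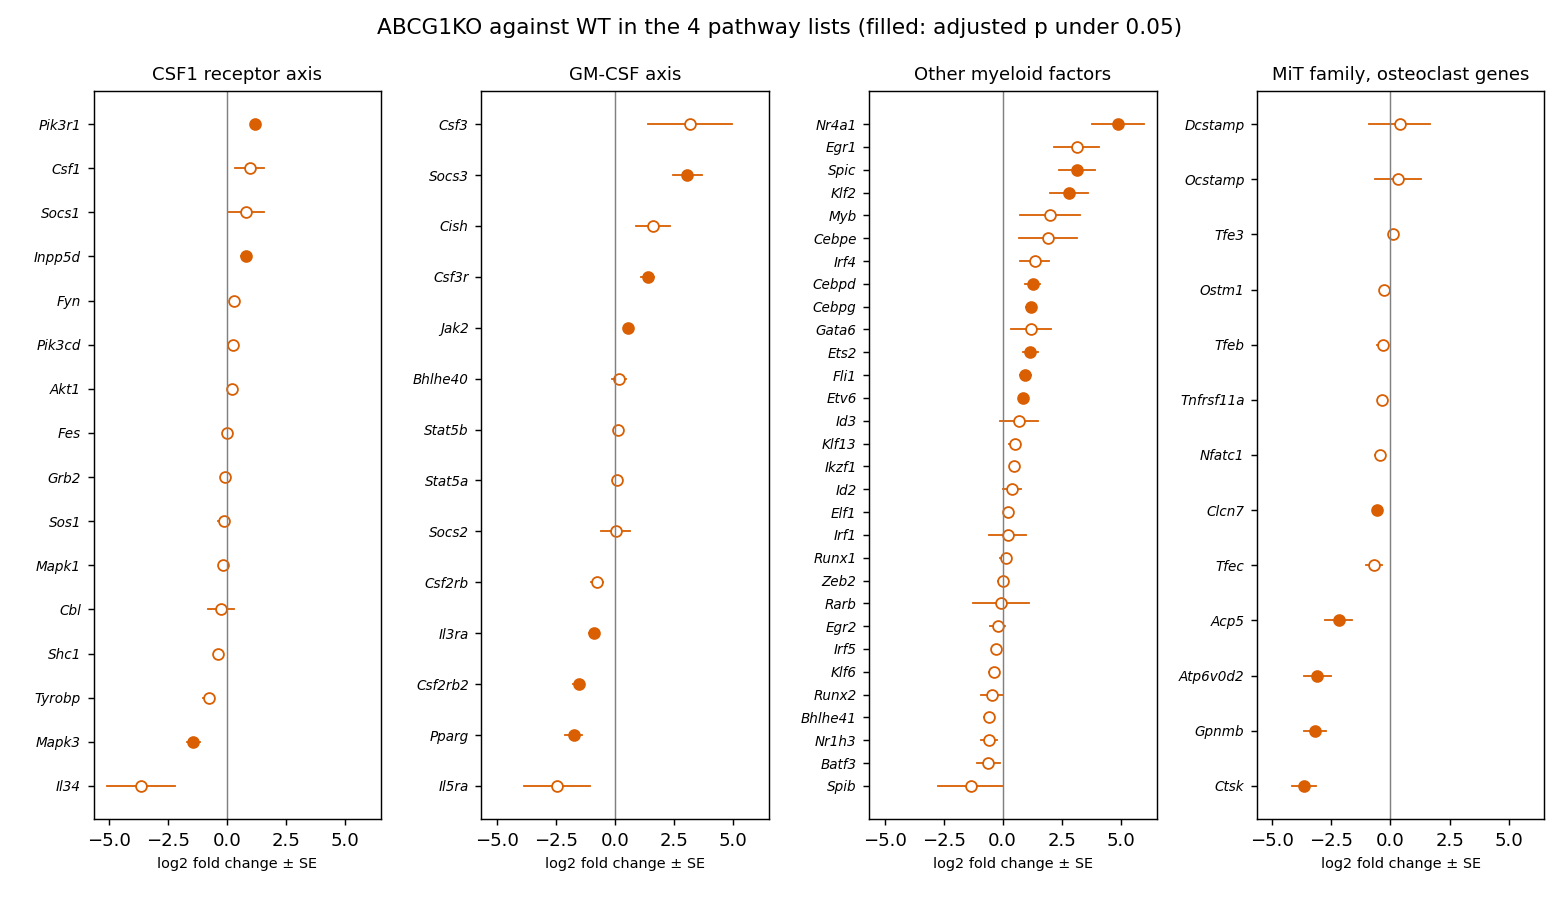
Log2 fold change from WT of every tested gene of the 4 lists (points) in ABCG1KO, with the SE as a bar and the genes called at an adjusted p under 0.05 filled. Called genes lie above 0 in the list of other myeloid factors (8 of 30) and under 0 in the MiT and osteoclast list (5 of 13), and on both sides of 0 in the CSF1 receptor and GM-CSF lists. The lists were chosen with earlier results of these data known.

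Similarity of pattern was measured as Pearson's r of log2(CPM + 0.5) over the 8 libraries, among 8510 genes with a mean of at least 10 CPM. For Csf1r the most similar genes were Fam76b (r = 0.992), Srek1 (0.987) and Acpp (0.980), for Cebpa they were Fam102b (0.991), Zfp622 (0.989) and Kbtbd2 (0.987), and for Cebpb they were Clec4d (0.981), Arglu1 (0.974) and Cd1d1 (0.969). For Spi1 they were BC028528 (0.984), AI413582 (0.966) and Pdcd6 (0.962), and for Csf2ra they were Kcnn4 (0.977), Gas5 (0.958) and Cars2 (0.951). Irf8 was followed by Cyp27a1 (0.966), Rnf135 (0.964) and Itpripl1 (0.959), and Mitf by Sirt1 (0.960), Ctnnbl1 (0.951) and Itpkb (0.949). The lowest values were those of Maf, with Rabep2 (0.918), Mtf1 (0.912) and Ints5 (0.911), and of Klf4, with Cnnm4 (0.937), Xxylt1 (0.921) and Id1 (0.893). The 8 points share the split between the ABCG1KO libraries and the rest, and no other member was among the 3 genes most similar to a member.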

How the data were processed

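RNA-seq of 8 mouse macrophage libraries was analysed from raw counts per gene symbol, which the authors deposited as 1 htseq-count file per library, per the file headers and special lines. The submitters' processing notes name STAR 2.7.9a, TopHat, HTSeq 0.11.2, DESeq2 1.30.1, limma and mm10, with no roles; the strand setting is not given in the sources used here. The 5 special lines of each file were left out of library sizes and tests: reads with no feature made up 4.26% to 6.07% in WT and LysM-DKO and 10.2% to 13.8% in ABCG1KO.

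The members and the lists of pathway and marker genes were chosen with earlier results of these data known. The fit used edgeR 4.0.16 (R 4.3.3) on these counts: filterByExpr (13821 genes kept), TMM factors, 1 robust quasi-likelihood fit over all 8 libraries with a term per group (5 residual degrees of freedom), and Benjamini-Hochberg adjustment over all genes with a threshold of 0.05. CPM are scaled with the TMM factors. Intervals are 95% and come from the fit. All members are named, and from each list at most 5 called genes by adjusted p plus direct ligands, partners and paralogs of members. Genes that carried much of a marker sum are named too. Exon lengths, overlaps and 50-base stretches shared with other genes came from GENCODE vM21 (GRCm38), which matched 23324 of the 24421 symbols. The members share at most 0.269% of such stretches. The fit was tested on simulated counts with 200 changed genes. Of 2-fold changes it recovered 13.5% in ABCG1KO against WT and 27% in LysM-DKO against WT. Of 4-fold changes it recovered 82% and 90.5%. A gene that was not called may therefore still differ 2-fold. The cut-off set by the adjustment depends on how many genes change. In the data, 5 genes were called in LysM-DKO against WT and 2216 in ABCG1KO against WT, unlike the 200 changed genes simulated for each. The recovered shares therefore do not tell which comparison finds more of its changes. Alternatives were RLE size factors, library size only, no count filter, at least 10 counts in every library, only the groups compared, DESeq2 1.42.0, a replicate block, leaving out each library, and, added after seeing the data, a prior that is not robust and genes with under 1% shared sequence. No sample was left out; 1 gene of the lists is not reported here.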

Additional observations from a re-analysis of the deposited data

How the results depend on the processing

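The same 3 members were called in ABCG1KO against WT with RLE factors, library size only, no count filter, at least 10 counts in every library, only the groups compared, DESeq2 and both alternatives chosen after seeing the data. Leaving out 1 library gave 1 to 3 called members there, 0 to 4 in LysM-DKO against ABCG1KO (3 with all libraries), and 0 in LysM-DKO against WT. Over all genes, LysM-DKO against WT gave 5 calls with all libraries and 0 to 8 without 1 library, 3 with at least 10 counts in every library, 8 with only the groups compared, 299 in DESeq2 and 3 with the prior that is not robust. ABCG1KO against WT gave 2216, with 853 to 2090 without 1 library and 1190 among genes with under 1% shared sequence. LysM-DKO against ABCG1KO gave 1853, with 561 to 1960 without 1 library, 948 with only the groups compared, 2982 in DESeq2 and 938 under 1% shared sequence. In the 4 pathway lists, the calls were 22, 14 and 0 in ABCG1KO against WT, LysM-DKO against ABCG1KO and LysM-DKO against WT. Without 1 library they were 7 to 19, 4 to 13 and 0. The second comparison gave 4 with only the groups compared, 21 in DESeq2 and 8 under 1% shared sequence, and the third gave 8 in DESeq2. Fewer libraries or genes enter some of these settings; otherwise the cause was not tested.

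Replicate numbers did not pair WT with LysM-DKO: same-numbered libraries had deviations from their group means that correlated at 0.03, 0.48 and -0.05. With the replicate number as a block, 0, 1456 and 1024 genes were called in LysM-DKO against WT, ABCG1KO against WT and LysM-DKO against ABCG1KO, 7 of the pathway lists in the last, and Cebpb was no longer called against WT (1.79, adjusted p = 0.0782 in edgeR) or ABCG1KO (-2.04, adjusted p = 0.0717 in edgeR). The calls of Inpp5d, Cebpd, Klf2, Csf3r, Clcn7, Cd68 and Lum in ABCG1KO against WT were lost with the block too. The block also turned Maf in ABCG1KO against WT to -0.070.

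In LysM-DKO against ABCG1KO, 3 members were called under the settings that keep all libraries, except 4 in DESeq2, 2 with only the groups compared and 2 with the block. Of 459 member values under alternatives, 421 kept their direction and side of the threshold, 16 lost a call, 2 gained one and 20 changed sign, none of them a called value. Library size only turned Csf1r (0.10) and Irf8 (0.000789) in LysM-DKO against WT, Spi1 in ABCG1KO against WT (0.029) and Maf in LysM-DKO against ABCG1KO (-0.015). Leaving out 1 library at a time moved values across 0 in LysM-DKO against WT for Csf1r (-0.24 without WT 1 to 0.20 without WT 3), Cebpb (-0.48 without LysM-DKO 3 to 0.015 without LysM-DKO 1), Maf (-0.092 without LysM-DKO 2 to 0.39 without LysM-DKO 3) and Irf8 (-0.39 without LysM-DKO 1 to 0.12 without LysM-DKO 3). In LysM-DKO against ABCG1KO it did so for Spi1 (-0.15 without ABCG1KO 2 to 0.13 without ABCG1KO 1), Maf (-0.20 without LysM-DKO 2 to 0.28 without LysM-DKO 3), Mitf (-0.15 without LysM-DKO 1 to 0.12 without ABCG1KO 1) and Klf4 (-0.67 without LysM-DKO 3 to 0.23 without LysM-DKO 1). With 2 ABCG1KO libraries, leaving out 1 assumes that the other varies like the remaining groups. The member with the fewest counts, Klf4, had at least 259 in each library.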

Other observations

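The remaining marker lists cover other cell types, and their summed CPM does not give a share of cells. Neutrophil markers summed to 11.0 to 19.5 CPM in WT, 8.63 to 22.9 in LysM-DKO and at least 23.7 in ABCG1KO, and none of the 3 tested was called in ABCG1KO against WT by edgeR. Mmp8 alone gave 17.5 and 21.0 CPM of this sum in ABCG1KO. B cell markers summed to 3.47 to 38.7, 1.45 to 3.85 and 3.51 to 16.5 CPM in the same order, T cell markers to 2.26 to 5.36, 1.77 to 6.65 and 1.88 to 3.59, and mesothelial markers to 7.61 to 43.8, 5.38 to 58.0 and 6.15 to 23.1, with no call. Fibroblast markers summed to 755 to 913, 678 to 1663 and 160.05 to 1185 CPM, the 2 ABCG1KO libraries lying far apart, and 1 of 6, Lum, was called lower in ABCG1KO and lost the call in 11 of 16 alternatives. Melanocyte markers reached at most 0.909 CPM.

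Lyz2, the lysozyme gene whose promoter gives LysM its name, stood at 13004 to 15709.5 CPM in WT, 6177 to 8105 in the libraries labelled LysM-DKO and 11237 and 14412 in ABCG1KO. The groups LysM-DKO and WT did not overlap, and the difference did not pass (log2 fold change -1.09, SE 0.202, edgeR quasi-likelihood test, Benjamini-Hochberg adjusted p = 0.173). For Lyz2, 15.4% of 50-base stretches are found in another gene.

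The F4/80 gene Adgre1 and the endosomal gene Cd68, both macrophage markers, went opposite ways in ABCG1KO. Adgre1 rose from 512, 767 and 540.4 CPM in WT to 1347 and 1451 (log2 fold change 1.21, SE 0.242, adjusted p = 0.0147 in edgeR), while Cd68 fell from 2662, 2125 and 2343 to 917 and 1369 (-1.06, SE 0.228, adjusted p = 0.0192 in edgeR). Both calls were lost without ABCG1KO 1, and that of Cd68 also without WT 1. Among monocyte markers, Hp rose from 1.04 to 2.67 CPM to 867 and 175, and Ccr2 from 1.29 to 5.47 CPM to 127 and 40.2 (adjusted p = 0.00113 and 0.00446 in edgeR).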
